A study of Mus musculus with 16 samples.

Results

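Endothelial cells (EC) of the mouse left ventricle were compared between the late stages (8w and 11w) and the early stages (0w and 2w) of a study of transverse aortic constriction (TAC), a surgical narrowing of the aortic arch against which the ventricle has to pump. The cells are those that the authors' cell annotation calls EC. These were 1694 of 8489 cells in the 9 mice compared, and 1858 of 11492 cells in the whole series. The early group held 4 male mice, 2 at 0w and 2 at 2w, with 400, 320, 171 and 194 EC. The late group held 5 male mice, 3 at 8w and 2 at 11w, with 200, 27, 37, 173 and 172 EC. The 7 mice at 5w were left out of the comparison. The labels give the stage, sex and individual of each mouse; strain and age were not used here, and the labels do not say whether the 0w mice had surgery. The tissue was digested in either of 2 ways, one of protease XXIV plus collagenase II that favours myocytes and one based on papain that favours the remaining cells. The polyadenylated RNA of single cells was counted as unique molecular identifiers (UMIs).

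The endothelium of the heart is a mixture. Capillary endothelium makes up most of it and carries fatty acids from the blood to the myocytes, with Gpihbp1 holding lipoprotein lipase at the vessel wall and Cd36 and Fabp4 taking up and binding fatty acids. Venous and endocardial cells, the latter lining the chambers, are known for von Willebrand factor (Vwf), and endocardial cells also for the natriuretic peptide clearance receptor Npr3. Activated endothelium displays adhesion molecules such as E-selectin (Sele), P-selectin (Selp) and Vcam1, which slow and hold leukocytes.

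Of 20 pan-endothelial genes, 19 had their highest mean level in EC among the 6 annotated cell types, and Cd34 was higher in fibroblasts. Levels are given as mean counts per 1000000 (CPM): each cell was scaled to 1000000 non-mitochondrial UMIs and the cells of a mouse were then averaged, so that every cell weighed the same. Differences are late minus early on the log2(CPM + 10) scale with their standard error (SE), which understates the change of low genes, and adjusted p-values are Benjamini-Hochberg values of limma over 8461 genes. The EC of a mouse held between 575121 and 10845231 non-mitochondrial UMIs, and the median per cell ran from 5997 (11w replicate 1) to 24981 (8w replicate 1). 8w replicates 2 and 3 stood apart, with 27 and 37 EC and the fewest UMIs. Mice of the same stage shared their plates, except that 8w replicate 1 was on a plate with a 5w mouse, so that plate and stage cannot be told apart. No cell name occurred in more than 1 mouse, and the median of all differences was −0.14.

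Late EC held more RNA of Vwf, of Cpe, which encodes the prohormone-processing enzyme carboxypeptidase E, and of the predicted gene Gm12155, and 0 genes passed the test in the lower direction. These 3 genes are 0.0355% of those tested. A further set of endocardial and venous genes had late levels above early ones, and capillary and fatty acid genes had late levels below early ones, but none of them passed by itself. At an unadjusted p under 0.05 there were 192 genes with higher (2.27%) and 450 with lower late levels (5.32%).

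Vwf, the multimeric protein that tethers platelets to damaged vessel walls, was at 72.4 and 132.6 CPM in the 0w mice and at 118.7 and 89.8 CPM in the 2w mice. In the 8w mice it was at 218.5, 332.5 and 996 CPM, and in the 11w mice at 1035 and 1012 CPM. Every late mouse lay above every early mouse, and 8w replicates 1 and 2 were the lowest of the late group. Vwf rose by 2.46 ± 0.42 (SE; n = 4 and 5; limma adjusted p = 0.0161). The gene lies on chromosome 6, from 125546774 to 125686679 on the plus strand (GRCm38, GENCODE vM21).

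Cpe was at 44.2 and 64.5 CPM at 0w and at 104.0 and 88.8 CPM at 2w. It was at 129.7, 410.1 and 619 CPM at 8w and at 802 and 770.5 CPM at 11w. Again the groups did not overlap, and 8w replicate 1 was closest to the early mice. Cpe rose by 2.52 ± 0.44 (SE; n = 4 and 5; limma adjusted p = 0.0161). It lies on chromosome 8, from 64592542 to 64693054 on the minus strand.

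Gm12155 is annotated as a processed pseudogene of the minus strand of chromosome 11 (44387115 to 44387274), whose reads may be shared with a parent gene. It was at 149.7, 148.9, 159.6 and 63.5 CPM in the early mice and at 387, 562, 613, 540.1 and 1303 CPM in the late mice. The groups did not overlap, and the difference was 2.25 ± 0.37 (limma adjusted p = 0.0161). One 11w plate held 130 EC whose non-mitochondrial UMIs were, by the median, 0.484 of the UMI number in the cell annotation. On the other 11w plate this ratio was 1. Whether the annotation counted mitochondrial UMIs on the former plate alone was not tested. Without the cells of the plate with the ratio of 0.484 the difference of Gm12155 was 0.66 (limma adjusted p = 0.939). Then 2 genes passed, which were both among the 3 of the full comparison. Gm12155 falls outside the rule for named genes and is given because so few genes passed.

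The calls of Vwf and Cpe depended on the model. With edgeR's quasi-likelihood test on raw UMI sums, in which deep cells weigh more, 0 of 12815 genes passed (0.0%; 1042 at an unadjusted p under 0.05), with adjusted p = 0.255 for Vwf and 0.164 for Cpe. With DESeq2 on the same sums 239 genes passed (1.87%), 123 higher and 116 lower, with adjusted p = 0.0369 for Vwf and 0.00471 for Cpe. Without 8w replicates 2 and 3, an alternative chosen after seeing the data, 0 genes passed, and Vwf differed by 2.49 (limma adjusted p = 0.0544) and Cpe by 2.44 (limma adjusted p = 0.1). Leaving out 1 mouse at a time gave from 0 to 26 genes; the count fell to 0 when 1 of 4 mice was left out (0w replicate 1, 2w replicate 2, 8w replicate 3, 11w replicate 2) and reached 26 when 8w replicate 1 was. It was 10 without 2w replicate 1 and 6 without 8w replicate 2. The difference of Vwf was positive in each of 34 alternatives (1.98 to 3.25) and passed in 16 of them, and that of Cpe was positive in each of 34 (1.57 to 3.65) and passed in 15.

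**Figure D1:**
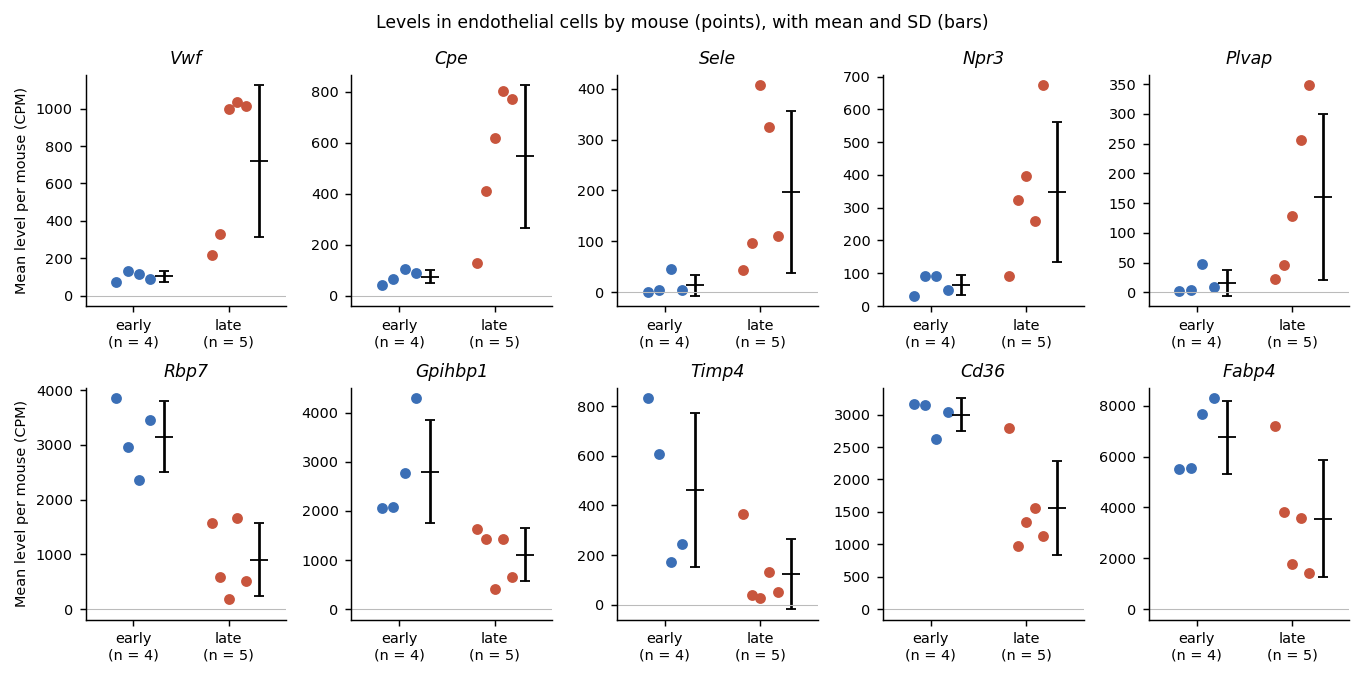
Mean level per mouse (CPM, linear axis) of 10 genes in EC of the 4 early mice (blue) and 5 late mice (red), points ordered by stage and replicate, with the group mean and SD as a bar. Every late mouse lay above every early mouse for Vwf, Cpe and Npr3 and below it for Rbp7 and Gpihbp1, while Sele, Plvap, Timp4, Cd36 and Fabp4 overlapped.

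Among endocardial and venous genes, none but Vwf passed the test. Npr3, which removes natriuretic peptides from the circulation, was at 31.2, 90.8, 90.4 and 47.8 CPM in the early mice and at 92.8, 322, 397, 259.1 and 674 CPM in the late mice. Its difference was 2.11 ± 0.46 (limma adjusted p = 0.143), with 8w replicate 1 only just above the early range. Plvap, a protein of the diaphragms of fenestrae and caveolae, was at 2.97 to 48.3 CPM in the early mice and at 22.5, 45.8, 128.3, 255.4 and 348 CPM in the late mice (difference 2.51 ± 0.64, limma adjusted p = 0.176). Hand2, a cardiac transcription factor, was at 1.18 to 25.4 CPM in the early and 51.2 to 129.4 CPM in the late mice (difference 2.46 ± 0.51, limma adjusted p = 0.107). For Plvap the groups overlapped and for Hand2 they did not.

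Of 15 venous genes tested, 14 had a positive difference, against 3301 of all 8461 genes (39.0%), and 8 had an unadjusted p under 0.05 in that direction. Their median was 0.84, and 0.61 without the cells of the subcluster EC9, described below. Nrp2 was the venous gene with a negative difference (−0.17), and Emcn, Tek and Mgp stood at 1.18, 0.84 and 0.77. Among the positive members, Bgn (0.98) and Lrg1 (1.07) had a mean level in another cell type at least 5 times that in EC. Bgn was among the 8 with an unadjusted p under 0.05. The member most used as a marker of venous identity, the transcription factor Nr2f2, had a difference of 0.14 ± 0.48. Of 13 endocardial genes, 10 had a positive difference, with a median of 0.50 that became −0.11 without EC9 cells. Smoc1 (1.63) and Tmem108 (1.50) were next to Npr3, and Cytl1 had the lowest value (−1.19). Plvap is in both lists.

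Genes of leukocyte adhesion gave the highest difference among the genes named by the rule. Sele was at 0.668, 5.35, 45.0 and 4.28 CPM in the early mice and at 44.0, 97.3, 407, 324 and 111.0 CPM in the late mice. The groups overlapped by 2w replicate 1 and 8w replicate 1, and the difference was 3.06 ± 0.60 (limma adjusted p = 0.0607). Selp was at 0 to 5.67 CPM in the early mice and at 0, 250.1, 243.1, 30.3 and 99.9 CPM in the late mice (difference 2.75 ± 0.71, limma adjusted p = 0.183). No early mouse reached the 10 CPM of the filter, so Selp was tested only through the late mice, which fixed its direction. It is also among the venous genes counted above at an unadjusted p under 0.05. Vcam1 was at 44.3, 97.8, 178.9 and 52.1 CPM in the early and at 95.5, 198.2, 792, 409 and 449 CPM in the late mice (difference 1.82 ± 0.49, limma adjusted p = 0.204). Selp was not detected in 8w replicate 1, which was within the early range for Vcam1 as well. The list as a whole moved less than these 3 genes, with a median of 0.16. Of its 21 tested members 15 had a positive difference, against 39.0% of all genes. Of these, 4 had an unadjusted p under 0.05, Selp among them. Icam1, at 0.063 to 25.4 CPM in all 9 mice, had a difference of 0.32 ± 0.46.

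Genes of vessel tone were mixed, with 10 of 20 positive, against 39.0% of all genes, and a median of 0.01. At an unadjusted p under 0.05, 5 of the 20 were higher and 1 lower, against 2.27% and 5.32% of all genes. Edn1, the precursor of the vasoconstrictor endothelin, was at 11.1, 18.4, 19.9 and 13.8 CPM in the early mice and at 11.2, 219.7, 252.2, 121.9 and 217.4 CPM in the late mice. Its difference was 2.36 ± 0.60 (limma adjusted p = 0.171), and 8w replicate 1 again lay in the early range. Ece1, which cleaves the endothelin precursor, had a difference of 1.43 ± 0.37 (limma adjusted p = 0.194). The shear-responsive factors Klf2 and Klf4 had differences of −0.04 ± 0.48 and 0.14 ± 0.32. Klf2 was positive in 18 alternatives, DESeq2 and the TMM scaling among them. Nos3, the endothelial nitric oxide synthase, was too low to be tested (1.56 to 38.1 CPM). Of the other genes named by the rule as higher, Clu, Ephx2 and Gatad1 had differences of 1.89 to 1.92 and did not pass.

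Of 23 genes of VEGF, angiopoietin and apelin signalling tested, 10 had a positive difference, against 39.0% of all genes, and their median was −0.08. The receptors Kdr and Flt1 stood at −0.08 ± 0.42 and 0.08 ± 0.29, and both changed sign among the alternatives. Angpt1, a ligand of Tek, was at 0.392 to 2.46 CPM in the early and 16.6 to 38.1 CPM in the late mice. It was low in both groups and had no overlap (difference 1.72 ± 0.43, limma adjusted p = 0.161). No early mouse reached the 10 CPM of the filter, so Angpt1 was tested only through the late mice, which fixed its direction. Apln was at 0.98 to 18.3 CPM in the early mice and at 0 in every late mouse but 8w replicate 1 (18.4 CPM). The general endothelial genes Pecam1 and Cdh5 differed by 0.16 ± 0.33 and 0.41 ± 0.29. Over the 20 pan-endothelial genes the median was −0.10, with 8 positive.

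**Figure D2:**
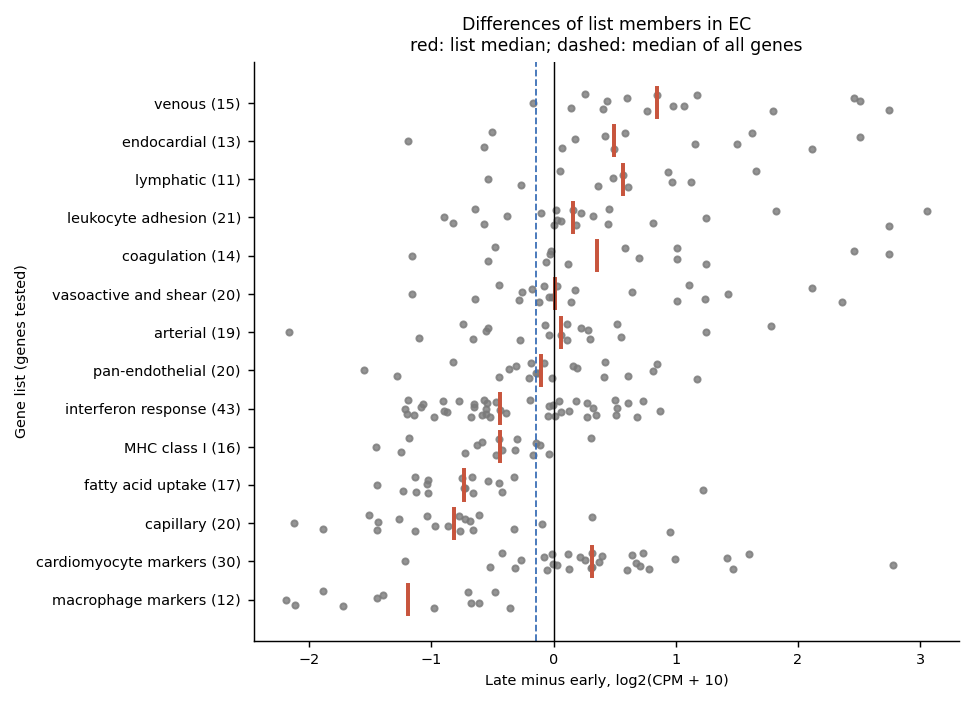
Late minus early difference on the log2(CPM + 10) scale (x axis) for each tested member (grey points, spread vertically only for display) of 14 gene lists (y axis, number tested in brackets), with the median of each list in red. Venous genes (median 0.84) lie mostly to the right of the median of all genes (dashed, −0.14), and capillary (−0.81) and fatty acid uptake genes (−0.73) mostly to the left. The capillary and fatty acid uptake lists share members, Gpihbp1, Cd36 and Fabp4 among them.

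Most capillary genes and genes of fatty acid uptake had late levels below early ones, and none of them passed the test. The smallest p of the named genes in the lower direction was that of Rbp7, a retinol-binding protein that is a member of the arterial list. It was at 3851, 2955, 2354 and 3455 CPM in the early mice and at 1570.5, 589, 184.4, 1672 and 516 CPM in the late mice. The groups did not overlap, and the difference was −2.16 ± 0.47 (limma adjusted p = 0.145). Gpihbp1 was at 2056, 2086, 2774 and 4291 CPM in the early and at 1635, 1427, 414.5, 1422 and 647 CPM in the late mice. These groups did not overlap either, and the difference was −1.44 ± 0.36 (limma adjusted p = 0.171). Groups with late mice all below early mice were seen for 142 of all genes (1.68%), and with late mice all above for 58 (0.685%).

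Cd36 was at 3165, 3153, 2622 and 3039.8 CPM in the early mice and at 2786, 972, 1349.7, 1553 and 1122 CPM in the late mice. Its difference was −1.04 ± 0.29 (limma adjusted p = 0.251), with 8w replicate 1 within the early range and the other 4 late mice below it. Fabp4 was at 5524, 5549, 7671 and 8287 CPM in the early and at 7205, 3812, 1786, 3576 and 1421 CPM in the late mice, with the same mouse in the early range (difference −1.14 ± 0.35, limma adjusted p = 0.348). Timp4, an inhibitor of metalloproteinases, was at 832, 607, 170.9 and 245.5 CPM in the early and at 365, 40.9, 25.9, 133.3 and 51.1 CPM in the late mice. Its difference was −2.12 ± 0.57 (limma adjusted p = 0.234), and the 2 0w mice were the highest. Aqp7, a channel for water and glycerol, was at 47.7 to 75.1 CPM in the early mice and, apart from 70.2 CPM in 8w replicate 1, at 0.676 to 5.24 CPM in the late mice.

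Of 20 capillary genes, 18 had a negative difference, against 5160 of all genes (61.0%), and 11 had an unadjusted p under 0.05 in that direction. Their median was −0.81, and −0.55 without EC9 cells. Aqp1 (0.32) and Prss23 (0.95) had positive values, and the transcription factors Tcf15 and Meox2, which drive fatty acid uptake genes in heart endothelium, stood at −0.66 ± 0.44 and −0.73 ± 0.56. Of 17 genes of fatty acid uptake, 16 had a negative difference, with a median of −0.73 with and without EC9 cells. Gpihbp1, Cd36 and Fabp4 are in the capillary list as well, so the counts of these lists are not independent. Plin2, which coats lipid droplets, had late levels (4.93 to 58.5 CPM) all below the early ones (68.9 to 96.2 CPM). Vldlr was the exception (1.23), and its mean level in cardiomyocytes was at least 5 times that in EC. Of 19 arterial genes, with Rbp7 among them, 10 had a positive difference, and their median was 0.06.

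Other genes named by the rule as lower were Gnb2l1, Snrpe, Itgam, Gatsl2, Thrsp, Polr1d, Hnrnpd, Cd34, Cd24a and Rap1b, with differences of −2.59 to −1.14 and no pass. Several of them were high in the 0w mice alone. Itgam, an integrin chain best known from myeloid cells, was at 303 and 348 CPM at 0w, at 23.7 and 41.9 CPM at 2w and at 4.99 to 22.8 CPM in the late mice (difference −2.52 ± 0.62, limma adjusted p = 0.161). Gatsl2, Hnrnpd and Cd24a were likewise highest in both 0w mice. Sparc and Col4a1, proteins of the basement membrane and matrix, had differences of −0.87 ± 0.37 and −0.90 ± 0.40. Cell cycle genes were low, and 10 of the 37 listed passed the filter. Of these 10, 9 had a negative difference, against 61.0% of all genes. Cenpf was at 12.2 to 83.0 CPM in the early and at 0 to 10.9 CPM in the late mice. Among the late mice only 11w replicate 2 reached the 10 CPM of the filter, so Cenpf was tested mainly through the early group. The same holds for Top2a, with only 11w replicate 2 above 10 CPM (15.1 CPM), and Mcm7, with only 8w replicate 2 (11.6 CPM). For such members the filter set the direction in part, and no conclusion is drawn from the 9 of 10.

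The authors divided EC into subclusters EC1 to EC9, drawn from the same expression values, so that their shares and the levels above are not independent. EC9 had the highest mean level of Vwf (1727 CPM), Cpe (1307 CPM), Npr3 (933 CPM) and Plvap (429 CPM), and low levels of Gpihbp1 (184.2 CPM) and Cd36 (348 CPM). EC5, with 444 cells the largest, had the opposite profile, with 78.2 CPM of Vwf, 3545 CPM of Gpihbp1 and 3143 CPM of Cd36. EC9 made up 2.25%, 1.88%, 9.36% and 3.61% of EC in the early mice. In the late mice it made up 9.50%, 7.41%, 29.7%, 41.0% and 54.1%. The mean share was 4.27% ± 3.47 (SD, n = 4) early and 28.3% ± 20.1 (SD, n = 5) late, a difference of 24.1 percentage points (two-sided exact permutation test p = 0.0317, adjusted over 9 subclusters 0.143). The 11w mice were highest, and the groups overlapped, since 2w replicate 1 lay above 8w replicate 2.

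EC1 made up 53.2% and 49.4% of EC at 0w, 2.92% and 3.61% at 2w, 1.50% in 8w replicate 1 and 0 in the other late mice. Its difference was −27.0 percentage points (two-sided exact permutation p = 0.0159, the smallest that 126 splits of the mice allow; adjusted 0.143). EC2 and EC3 were also found almost wholly at 0w. EC7, in which the summed cardiomyocyte markers reached 99759 CPM, took 40.7% and 27.0% of EC in 8w replicates 2 and 3 and at most 5.26% elsewhere. None of the 9 subclusters passed after adjustment, and 2 had an unadjusted p under 0.05, EC1 and EC9. With so few mice the adjusted test could hardly pass, since EC1 had the smallest possible p and still stood at 0.143. No conclusion is drawn from the lack of a pass. The share of EC among all cells other than cardiomyocytes was 39.8% ± 11.2 (SD, n = 4) early and 26.1% ± 10.4 (SD, n = 5) late, a difference of −13.7 percentage points (two-sided exact permutation p = 0.111). It was −17.9 percentage points without 8w replicate 1 (two-sided exact permutation p = 0.0286) and −8.36 without 0w replicate 1 (two-sided exact permutation p = 0.25). As a share of all annotated cells it was −5.89 percentage points (two-sided exact permutation p = 0.429). Digestion and plates can set these shares and cannot be told apart from stage.

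**Figure D3:**
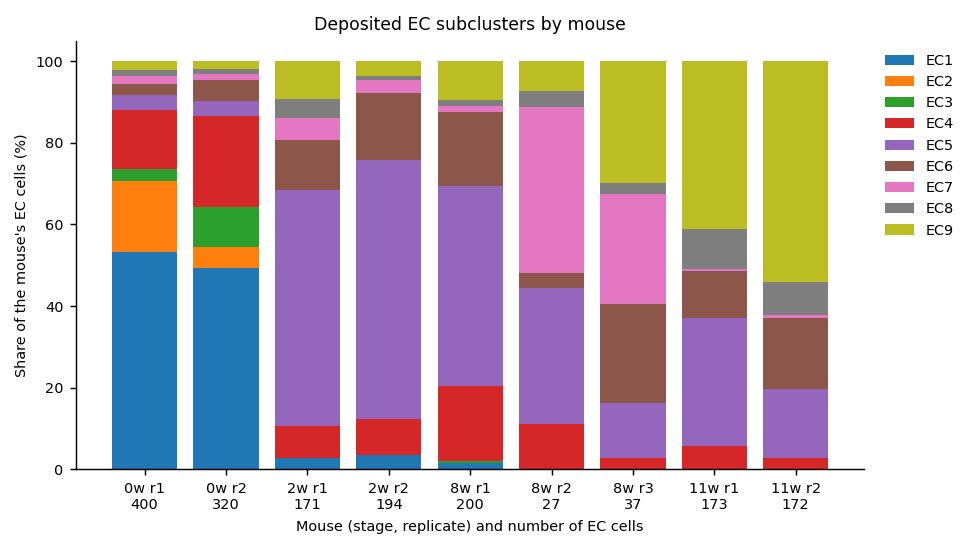
Share of each deposited EC subcluster (y axis, percent, stacked to 100) in the EC of each mouse (x axis: stage, replicate and number of EC). EC1 fills about the lower part of both 0w bars (53.2% and 49.4%), EC5 leads at 2w, EC7 is large in 8w replicates 2 and 3, and EC9 is largest in the 11w mice (41.0% and 54.1%).

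Within EC9 the level of Vwf overlapped between the groups. It was at 1533, 2477, 758 and 1441 CPM in the 9, 6, 16 and 7 EC9 cells of the early mice, and at 1528, 1554, 1237, 2007 and 1773 CPM in the 19, 2, 11, 71 and 93 EC9 cells of the late mice. Cpe within EC9 was at 554, 549, 729.8 and 736 CPM in the early mice and at 949, 1909, 1217, 1724 and 1324 CPM in the late mice, with no overlap. Within EC5, Vwf was at 0 to 59.3 CPM in the early mice and at 75.8, 153.1, 502, 272.3 and 77.3 CPM in the late mice, the value of 502 CPM resting on 5 cells. In EC5 Gpihbp1 was at 3386 to 5189 CPM in the early and 461 to 3791 CPM in the late mice, with overlap. No test was made within single subclusters beyond the fit on EC5 cells alone, in which 0 genes passed (235 at an unadjusted p under 0.05).

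Leaving out EC9 cells, an alternative chosen after seeing the data, gave Vwf a difference of 2.00 (limma adjusted p = 0.281) and Cpe one of 1.57 (limma adjusted p = 0.497), and Gm12155 was then the 1 gene that passed. Npr3 then stood at 0.66. Rbp7 stood at −1.73 and Gpihbp1 at −1.06 without EC9. Each of these genes kept its sign with a smaller difference, apart from Gm12155, which stood at 2.38. Without EC7 cells, also chosen after seeing the data, 0 genes passed. Vwf then stood at 2.43, Cpe at 2.51, Sele at 2.41 and Edn1 at 1.39. Selp had its highest level in EC7 (215.2 CPM, against 107.8 CPM in EC9) and did not pass the filter without either subcluster.

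**Figure D4:**
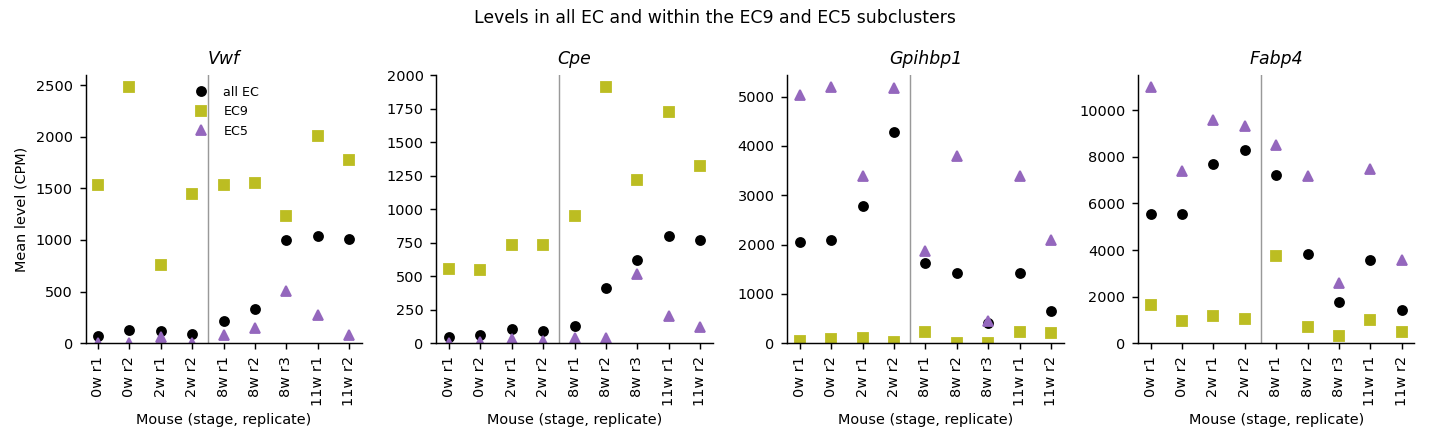
Mean level (y axis, CPM, linear) of Vwf, Cpe, Gpihbp1 and Fabp4 by mouse (x axis; the line parts early from late mice) in all EC (black), EC9 cells (olive squares) and EC5 cells (purple triangles). Vwf and Cpe lie high in EC9 in every mouse, while Gpihbp1 and Fabp4 lie high in EC5. The all-EC points of Vwf and Cpe lie below those of EC9 in every mouse. They are highest in 8w replicate 3 and the 11w mice.

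Cardiomyocyte transcripts in EC are marked here as ambient RNA, that is RNA of other cells caught with the cell. The 30 cardiomyocyte markers summed to 12634, 16181, 21808 and 21135 CPM in the early mice and to 19074, 47555, 34897, 10446 and 16218 CPM in the late mice. Only 8w replicates 2 and 3 were above the early range, and the means did not differ beyond the spread (17939 ± 4337, SD, n = 4, against 25638 ± 15237, SD, n = 5; two-sided exact permutation p = 0.429). The difference of 7699 CPM was 2219 CPM without 8w replicate 2 and 11496 CPM without 11w replicate 1. On plates with fewer cardiomyocytes than other cells, an alternative chosen after seeing the data, these 2 mice had 15 and 14 EC and 2785 and 4643 CPM, and the difference turned to −3970.2 CPM (two-sided exact permutation p = 0.333). In these mice 12 and 23 EC came from plates on which cardiomyocytes prevailed, with 103516 and 53313 CPM. With cardiomyocyte transcripts taken out of each cell's total 4 genes passed, among them all 3 of the full comparison, with Vwf at 2.46 and Cpe at 2.52 (limma adjusted p = 0.0155 for both). With EC of the plates rich in cardiomyocytes left out 0 genes passed, and Vwf differed by 1.98 (limma adjusted p = 0.589) and Cpe by 2.66 (limma adjusted p = 0.241).

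No cardiomyocyte transcript passed the test. Nppb, the B-type natriuretic peptide of stressed myocytes, was at 8.54, 25.2, 50.7 and 66.4 CPM in the EC of early mice and at 91.7, 708, 845, 81.1 and 330.4 CPM in those of late mice (difference 2.78 ± 0.61, limma adjusted p = 0.143). Xirp2, a protein of the myocyte's intercalated disc, had a difference of 2.54 ± 0.55 (limma adjusted p = 0.144), and Ankrd1 and Myh7 stood at 1.47 and 1.60. Tcap, a Z-disc protein, had the opposite sign (−1.21 ± 0.35). Of the 30 markers 21 had a positive difference, against 39.0% of all genes. The median of the markers was 0.31, and −0.25 when mitochondrial UMIs were kept in the total.

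**Figure D5:**
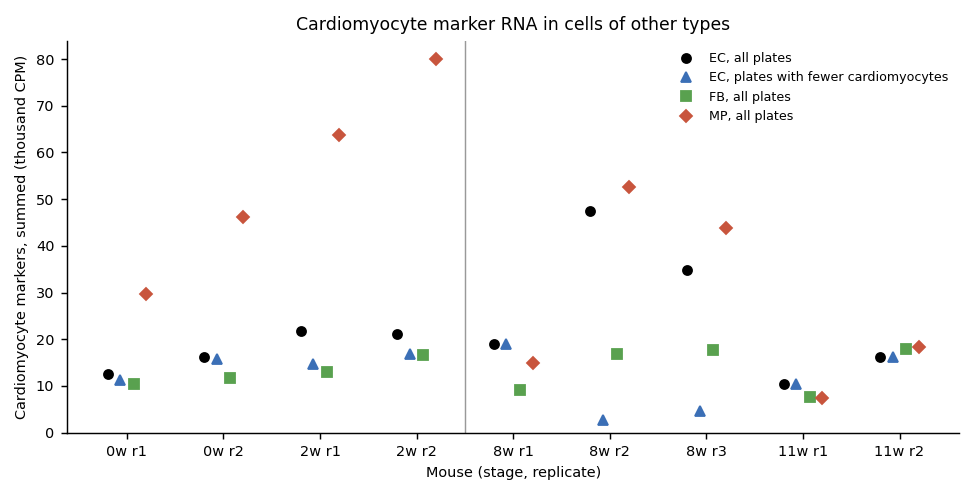
Summed level of 30 cardiomyocyte markers (y axis, in units of 1000 CPM) by mouse (x axis; the line parts early from late mice) in EC of all plates (black), EC of plates with fewer cardiomyocytes (blue), fibroblasts (FB, green) and macrophages (MP, red). EC of 8w replicates 2 and 3 are highest over all plates (47555 and 34897 CPM) and lowest on plates with fewer cardiomyocytes (2785 and 4643 CPM).

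Markers of other cells moved as well. The macrophage markers summed to 825 to 2114 CPM in early EC and to 176.7 to 968 CPM in late EC. Each of the 12 tested had a negative difference, against 61.0% of all genes, with a median of −1.19. Globin and other erythroid transcripts summed to 18174 to 40098 CPM in the early mice and to 1991 to 83735 CPM in the late mice, the extremes being 8w replicates 2 and 3. Fibroblast markers lay between 2279 and 5174 CPM in all 9 mice and mural cell markers between 370 and 1049 CPM. T cell and natural killer markers were at 127.7 to 223.4 CPM early and 0.538 to 50.7 CPM late. Their part in the results above was not tested.

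To ask whether the change was unlike that of other cells of the same mice, the difference of EC was set against that of fibroblasts (FB) and macrophages (MP). For EC minus FB 0 of 8461 genes passed (0.0%; 496 at an unadjusted p under 0.05), and for EC minus MP 0 passed (0.0%; 636). Rbp7 RNA was also found at low level in FB, at 195.2 to 440.5 CPM in early and 16.2 to 200.9 CPM in late mice. Its difference there was −1.90 ± 0.52, and −1.97 ± 0.71 in MP, close to the −2.16 of EC (EC minus FB −0.26 ± 0.49, limma adjusted p = 0.972). Gpihbp1 and Fabp4 had negative differences in both types too (−1.02 and −1.22 in FB, −1.57 and −1.38 in MP). The endothelial gene Cdh5 was itself found in these types, at 97.4 CPM in FB and 84.7 CPM in MP, against 704.9 CPM in EC. How far EC RNA caught with FB and MP made their differences resemble those of EC was not tested. Vwf differed by 1.20 ± 0.51 in FB and −0.30 ± 0.56 in MP, and EC minus MP was 2.76 ± 0.67 (limma adjusted p = 0.299). For Cpe EC minus FB was 2.29 ± 0.64 (limma adjusted p = 0.807) and EC minus MP 3.24 ± 0.77 (limma adjusted p = 0.299). None of these tests of a difference between cell types passed.

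The first and last stages were also compared by themselves, in a fit of its own with its own filter. For 11w against 0w alone, with 2 mice each, 322 of 9164 genes passed (3.51%), 72 higher and 250 lower. Vwf differed by 3.25 (limma adjusted p = 0.00811), Cpe by 3.65 (limma adjusted p = 0.00741) and Plvap by 4.55 (limma adjusted p = 0.00743). A gene entered this fit with 10 CPM in 2 mice, so the mice of 1 stage were enough. Plvap was at 2.97 and 3.42 CPM in the 0w mice, so it was tested only through the 11w mice, which fixed its direction. How many of the 322 genes entered in that way was not counted. Timp4 (−2.95, limma adjusted p = 0.0212) and Cd36 (−1.25, limma adjusted p = 0.039) passed in the lower direction, whereas Gpihbp1 (−1.10, limma adjusted p = 0.145) and Rbp7 (−1.85, limma adjusted p = 0.0919) did not and were closer to 0 than in the pooled groups. By stage, the mean of Vwf was 102.5 CPM at 0w, 104.3 CPM at 2w, 516 CPM at 8w and 1023 CPM at 11w, and that of Rbp7 was 3403, 2905, 781 and 1094 CPM.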

How the data were processed

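UMI counts per gene and cell (36950 genes, 11492 cells) were used as deposited by the authors, with their cell annotation of mouse, type and subcluster; 3 cells had no type. The submitters' processing notes name the builds mm10 and GRCh37 and the tools featureCounts, Subread 1.4.6-p1 and STAR 2.5.2b, with no roles; annotation, strand use and UMI collapsing: not given in the sources used here. Doublets were not called, no cell filter was added, and the 34 mitochondrially encoded genes were left out. Genes with a mean of at least 10 CPM in at least 4 of 9 mice were tested with limma 3.58.1 (trend and robust; R 4.3.3) at a threshold of 0.05. In place of a count model, limma was the main test because equal weight per cell gives means and not counts; edgeR 4.0.16 and DESeq2 1.42.0 were run on raw sums. Single values were compared by exact permutation over mice (Python 3.11.15). On simulated cells with 8925 genes, 95 of 100 genes changed 4-fold and 100 of 100 changed 8-fold were recovered, with 13 false calls. There each gene varied independently between mice with a coefficient of variation of 0.4, without shifts of plate or subcluster. Real genes could vary more, as Vwf did in the late mice (SD 407 around a mean of 719 CPM). The simulation thus checks the code and does not measure the power of this comparison.

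Named genes had at least 50 CPM, were not predicted, mitochondrial or ribosomal protein genes and were not at least 5 times higher in another type. These were the 15 with the smallest p in each direction, up to 4 members of each of 38 gene lists with the smallest p, of which only those the text turns on are given, and 23 fixed genes. Some of these genes are not reported here. The members, lists and rule were chosen with earlier results of these data known. Where nothing says how animals were prepared, p-values measure the spread between these mice.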

Additional observations from a re-analysis of the deposited data

Results flagged for a closer look

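Of 108 groups of mice examined, 15 held 1 mouse far from the others, where chance gives about 1 in 20 (5%). Among the early mice, 2w replicate 1 was the high one for Sele (45.0 CPM, others at most 5.35), Plvap (48.3 CPM, others at most 8.73), Icam1 (25.4 CPM, others at most 3.88) and the share of the subcluster EC8 (4.68%, others at most 1.50%). For Gm12155, 2w replicate 2 was low among the early mice (63.5 CPM, others at least 148.9) and 11w replicate 2 high among the late mice (1303 CPM, others at most 613).

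Among the late mice, 8w replicate 1 was the high one for Tcf15 (301.7 CPM, others at most 99.0), Meox2 (174.2 CPM, others at most 53.6), Apln (18.4 CPM, others 0) and the shares of EC1 (1.50%, others 0) and EC3 (0.50%, others 0). 8w replicate 3 was low for Sparc (261 CPM, others at least 773) and high for Nos3 (38.1 CPM, others at most 9.99), and 11w replicate 1 was high for Itgam (22.8 CPM, others at most 10.0) and Gatsl2 (10.7 CPM, others at most 1.1).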

How the results depend on the processing

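The 3 genes that passed became 0 with edgeR (TMM or RLE factors), a pseudocount of 1 CPM, no filter on low values, EC5 cells alone, cells with over 2% cardiomyocyte markers left out, or the replicate block. With 1 mean per stage the count was 4, and 0 when the 5w mice were added to that fit. They also became 0 under alternatives chosen after seeing the data: plates with fewer cardiomyocytes, the plate set as a random block, and leaving out EC7 cells or 8w replicates 2 and 3. The count was 1 without EC9 cells, 6 with cells thinned to 2000 UMIs (27 shallower cells left out, 10 early and 17 late), 6 without EC1 to EC3, 56 with array weights, 239 with DESeq2 and 322 for 11w against 0w. Leaving out 1 mouse gave 0 to 26 genes; the causes of these changes were not tested. None of 12 pairs of same-numbered mice correlated above 0.1 in their deviations from the stage means. These pairs are not independent, since the deviations mirror each other where a stage held 2 mice. Whether the replicate numbers pair the mice cannot be settled by these correlations.

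EC minus MP had 1 gene in place of 0 with a pseudocount of 50 CPM, and 0 to 1 when 1 mouse was left out; EC minus FB had 0 throughout. The EC share of non-cardiomyocytes differed by −17.9 to −8.36 percentage points when 1 mouse was left out, and by −5.89 as a share of all annotated cells. Cardiomyocyte transcripts differed by 2219 to 11496 CPM when 1 mouse was left out and reversed to −3970.2 CPM on plates with fewer cardiomyocytes. The number of subclusters that passed was 0 under each alternative, a count that the small number of mice all but fixed in advance.

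Signs turned for genes close to 0. With edgeR and TMM factors Cdh5 was −0.074, Flt1 −0.10, Klf4 −0.061 and Klf2 0.13, and with mitochondrial UMIs in the total Flt1 was −0.13 and Klf4 −0.10. With EC5 cells alone Flt1 was −0.13, Kdr 0.089, Pecam1 −0.064, Rap1b 0.014 and Tcf15 0.00024. Thinning gave Flt1 −0.013 and Klf2 0.12, and leaving out EC1 to EC3 gave Flt1 −0.062. Without EC9 cells Pecam1 was −0.070, Kdr 0.17 and Klf2 0.20, and without EC7 cells Kdr was 0.12 and Klf2 0.013. On plates with fewer cardiomyocytes Kdr was 0.054 and the EC5 share differed by 3.59 points, and with the replicate block Kdr was 0.051. For 11w against 0w Sparc was 0.081 and Klf2 0.10. Klf2 was further 0.20 with RLE factors and with DESeq2, 0.00098 with TMM factors on the means, 0.10 without cells rich in cardiomyocyte markers, 0.031 with a pseudocount of 50 CPM, 0.0045 with 1 mean per stage with or without the 5w mice, 0.21 with array weights, 0.00027 with the plate block and 0.46 without 8w replicates 2 and 3. Leaving out 1 mouse gave ranges of −0.46 to 0.21 for Kdr, −0.28 to 0.51 for Klf2, −0.058 to 0.18 for Flt1 and −12.9 to 6.99 percentage points for the EC5 share. The number of cells was lowest in 8w replicates 2 and 3 (27 and 37 EC), and the depth per cell in the 11w mice (medians of 5997 and 9875 UMIs).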
